A study of Homo sapiens and Mus musculus with 10 samples.

Results

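The RGS genes encode regulators of G-protein signalling, and 9 of them, RGS1, RGS2, RGS3, RGS10, RGS12, RGS14, RGS16, RGS18 and RGS19, were followed in 2 leukemia-related cell lines treated with WM-1119. They were taken by gene symbol, ignoring letter case, from the expression table of each line. All 9 of 9 were listed in both tables, among 27800 symbols in the MOLM-13 table and 24493 in the ER-Hoxa9 table. The genes were selected on their TPM levels and on their WM-1119 against DMSO differences in these libraries, which were known beforehand, so the differences between treatments below are descriptions of these libraries and support nothing by themselves.

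WM-1119 is a small-molecule inhibitor of the histone acetyltransferase KAT6A, and DMSO is the solvent control. MOLM-13 is a human acute myeloid leukemia line that carries an MLL fusion gene, and 3 libraries came from cells given 4 µM WM-1119 for 4 days, against 3 libraries from DMSO cells. ER-Hoxa9 cells are mouse myeloid progenitors immortalised by an estrogen receptor fusion of Hoxa9, and 2 libraries came from cells given 2 µM WM-1119 for 4 days, against 2 libraries from DMSO cells. All ER-Hoxa9 cells, controls included, were grown with β-estradiol and medium conditioned with stem cell factor, and the time under DMSO is not given in the sources used here. Each line is a single cell population in culture, and nothing in the labels says whether libraries of a group came from separate cultures, so every p-value refers to the spread among the libraries deposited, and that spread may be technical.

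When an agonist occupies a G-protein-coupled receptor, the receptor loads GTP onto a G protein alpha subunit, which then signals until the GTP is hydrolysed. RGS proteins bind the active alpha subunit through the RGS domain and speed that hydrolysis, and so shorten the signal of chemokine, lipid and nucleotide receptors in blood cells. The R4 subfamily (here RGS1, RGS2, RGS3, RGS16 and RGS18) has small proteins built largely of that domain, the R12 subfamily holds RGS10 and the larger RGS12 and RGS14, and RGS19 belongs to the RZ subfamily.

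The promoters of 4 of the genes are printed because these had the 2 largest standard deviations among MOLM-13 DMSO libraries (RGS1 and RGS16), the highest MOLM-13 difference on the log2 scale among the 9 genes (RGS18) and the highest ER-Hoxa9 one (Rgs10, shown by its human counterpart). Each is the 250 bases before the gene's start in RefSeq on GRCh38.p14, 5′ to 3′ on the gene's strand, from chr1:192575523-192575772 (plus strand), chr1:182604390-182604639 (minus strand), chr1:192158212-192158461 (plus strand) and chr10:119542720-119542969 (minus strand). Capitals mark the letters TATAAA.
RGS1: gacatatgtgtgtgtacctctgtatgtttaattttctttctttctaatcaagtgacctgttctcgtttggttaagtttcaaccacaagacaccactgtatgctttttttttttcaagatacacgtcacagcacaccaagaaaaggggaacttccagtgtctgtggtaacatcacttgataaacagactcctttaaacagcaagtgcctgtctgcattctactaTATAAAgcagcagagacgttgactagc
RGS16: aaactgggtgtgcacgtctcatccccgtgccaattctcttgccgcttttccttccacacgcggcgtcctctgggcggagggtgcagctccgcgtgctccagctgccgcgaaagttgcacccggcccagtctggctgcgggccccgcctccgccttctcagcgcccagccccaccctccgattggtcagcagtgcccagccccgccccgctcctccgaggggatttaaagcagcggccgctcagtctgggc
RGS18: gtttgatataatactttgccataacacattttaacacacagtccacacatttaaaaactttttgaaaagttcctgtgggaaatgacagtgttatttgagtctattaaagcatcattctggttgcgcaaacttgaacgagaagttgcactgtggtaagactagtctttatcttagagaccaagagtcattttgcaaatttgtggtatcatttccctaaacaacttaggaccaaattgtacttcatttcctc
RGS10: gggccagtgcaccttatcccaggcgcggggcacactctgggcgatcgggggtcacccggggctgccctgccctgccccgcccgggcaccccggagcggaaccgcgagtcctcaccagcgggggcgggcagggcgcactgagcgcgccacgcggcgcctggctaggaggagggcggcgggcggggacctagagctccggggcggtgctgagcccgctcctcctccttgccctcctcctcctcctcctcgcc

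All 9 human genes had an entry in the RefSeq promoter table. 4 motifs were searched on both strands, TATAAA (the TATA box), TGANTCA (the AP-1 site), TGACGTCA (the cyclic AMP response element) and CCGGAAG (an ETS core). The RGS1 promoter held TATAAA once, overlapping no other motif, its first letter 27 bases before the start, and the other 8 promoters held none of the 4 motifs in this window. Of 35116 promoters of the same length, 10.7% held TATAAA, 6.57% TGANTCA, 1.65% TGACGTCA and 8.52% CCGGAAG. The promoters differed more in CpG content. RGS1 had 3 CpG dinucleotides, RGS18 had 2 and RGS3 had 1, under the median of 11 over all promoters. RGS12 had 12 and RGS14 had 13, near that median, while RGS16 had 22, RGS10 had 26, RGS2 had 28 and RGS19 had 36.

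The human genes lie on 6 chromosomes. In GENCODE release 29 on GRCh38, RGS18 (chromosome 1, 192158457 to 192185815), RGS1 (chromosome 1, 192575727 to 192580031) and RGS2 (chromosome 1, 192809039 to 192812283) stand in 1 cluster on the plus strand, with RGS21 and RGS13 between them and gaps of 56.1 to 208 kb between neighbours. RGS16 (chromosome 1, 182598623 to 182604408, minus strand) lies outside that cluster, 37.4 kb from RGS8. RGS3 is on chromosome 9 (113444731 to 113597743), RGS10 on chromosome 10 (119499828 to 119542708), RGS12 on chromosome 4 (3293028 to 3439913), RGS14 on chromosome 5 (177357837 to 177372601) and RGS19 on chromosome 20 (64073181 to 64079988).

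**Figure D1:**
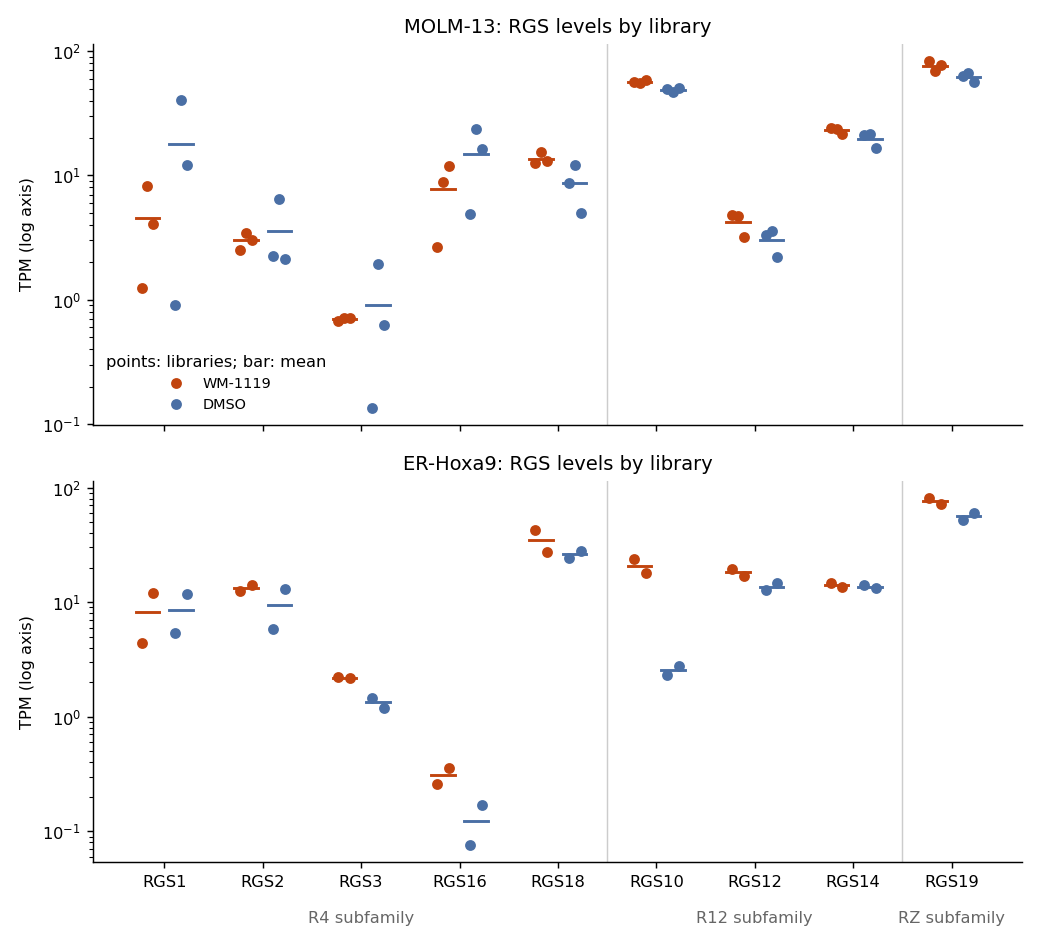
Level of each RGS gene in every library, in TPM on a log axis, for MOLM-13 (top) and ER-Hoxa9 (bottom); points are libraries and bars are group means, WM-1119 left of DMSO. RGS19 was the most abundant of the 9 genes in all 4 groups, and the ER-Hoxa9 WM-1119 libraries stood at 23.8 and 18.0 TPM of Rgs10, against 2.31 and 2.79 TPM in the DMSO libraries.

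Levels are given as TPM (transcript abundances that add up to the same total in every library), which are scaled for transcript length and so can be compared between genes, and RGS19 led in both lines. In MOLM-13 given WM-1119 the order was RGS19, RGS10, RGS14, RGS18, RGS16, RGS1, RGS12, RGS2 and RGS3. The libraries of RGS16 and RGS1, of RGS1 and RGS12 and of RGS12 and RGS2 overlapped. Within each WM-1119 library, though, RGS16 stood above RGS1 and RGS12 above RGS2, while the order of RGS1 and RGS12 varied between libraries. In MOLM-13 given DMSO the order was RGS19, RGS10, RGS14, RGS1, RGS16, RGS18, RGS2, RGS12 and RGS3, and every pair of neighbours between RGS14 and RGS12 overlapped. In ER-Hoxa9 given WM-1119 the order was Rgs19, Rgs18, Rgs10, Rgs12, Rgs14, Rgs2, Rgs1, Rgs3 and Rgs16, with overlap of Rgs10 and Rgs12 and of Rgs14 and Rgs2. In ER-Hoxa9 given DMSO it was Rgs19, Rgs18, Rgs14, Rgs12, Rgs2, Rgs1, Rgs10, Rgs3 and Rgs16, where neighbours between Rgs14 and Rgs1 overlapped and Rgs10 stood below Rgs1 in every library.

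Differences are given on the log2(TPM + 1) scale, WM-1119 minus DMSO, with the standard error of a limma fit over all genes averaging 1 TPM or more within a line, 12436 in MOLM-13 and 11362 in ER-Hoxa9. A gene was called at a Benjamini-Hochberg adjusted p under 0.05 over all of them. In each line 8 of the 9 genes passed the filter, RGS3 being below it in MOLM-13 and Rgs16 in ER-Hoxa9, and 0 of the 8 were called in either line. The share of all tested genes that was called was 0.00804% in MOLM-13 (1 gene, MIR191) and 0.0352% in ER-Hoxa9 (4 genes, APOO-PS, MIR1955, MIR7050 and MIRLET7I), so a count of 0 among 8 says little. At an unadjusted p under 0.05 from the same limma fit, 0 of the 8 RGS genes stood in MOLM-13, where 3.05% of all tested genes did, and 3 of the 8, Rgs10, Rgs12 and Rgs19, in ER-Hoxa9, where 12.8% did. With the replicate number as a block, which pairs the MOLM-13 libraries, 6 of the 8 had an unadjusted limma p under 0.05 in MOLM-13, RGS10 (0.0201), RGS12 (0.0126), RGS14 (0.0400), RGS16 (0.00837), RGS18 (0.0195) and RGS19 (0.0382), where 18.1% of all genes did. In ER-Hoxa9 the same block left Rgs10, Rgs12 and Rgs19, 3 of the 8, where 17.9% did. With median-of-ratios scaling added to the MOLM-13 block, the unadjusted limma p of RGS10 (0.0735), RGS14 (0.0737) and RGS19 (0.0537) was above 0.05. That of RGS12 (0.0214), RGS16 (0.00456) and RGS18 (0.0216) stayed under it. In that fit 1092 of 12449 tested genes were higher and 1150 lower at an unadjusted p under 0.05. These p-values come from the contrast on which the genes were selected, so they are given as a description.

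By the ratio of the highest to the lowest of the 6 libraries, the R4 genes of MOLM-13 ranged more widely than the R12 genes and RGS19, from 3.003 for RGS2 to 44.1 for RGS1, against 2.21 or less. Within the WM-1119 libraries alone RGS2, RGS3 and RGS18 ranged less widely than RGS12. RGS1, which dampens chemokine responses of lymphocytes, had 1.26, 8.28 and 4.05 TPM in WM-1119 libraries 1, 2 and 3, against 0.912, 40.2 and 12.2 TPM in DMSO libraries 1, 2 and 3. Replicate 1 was the lowest and replicate 2 the highest under both treatments, and the groups overlapped. The means were 4.53 ± 3.54 TPM with WM-1119 and 17.8 ± 20.2 TPM with DMSO (SD, n = 3 each). The log2 difference was -1.10 ± 1.06 (SE), with a 95% interval from -3.59 to 1.39. With the replicate number as a block its SE was 0.46. The difference was -0.09 without DMSO replicate 2 and -2.30 without DMSO replicate 1, fits that left a WM-1119 library without its same-numbered partner. With the replicate block and without the replicate 3 pair it was -0.96.

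RGS16, another R4 protein that acts on the Gi and Gq classes, had 2.64, 8.90 and 12.01 TPM in the WM-1119 libraries, against 4.86, 23.6 and 16.3 TPM in the DMSO libraries. WM-1119 was the lower library at each of the 3 replicate numbers, although the groups overlapped because replicate 1 was low under both treatments. RGS16 averaged 7.85 ± 4.77 TPM with WM-1119 and 14.9 ± 9.43 TPM with DMSO (SD, n = 3 each). The log2 difference was -0.80 ± 0.63 (SE, 95% interval -2.29 to 0.68). With the replicate number as a block its SE was 0.19. By replicate number the log2 differences were -0.69, -1.31 and -0.41. Without WM-1119 replicate 1 the difference was -0.26 and without DMSO replicate 1 it was -1.41.

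RGS18, an R4 protein known from platelets and blood progenitors, stood the other way, with 12.5, 15.4 and 13.02 TPM in the WM-1119 libraries, against 8.65, 12.2 and 4.96 TPM in the DMSO libraries. All WM-1119 libraries were above all DMSO libraries, by a narrow margin against DMSO replicate 2. It averaged 13.6 ± 1.53 TPM with WM-1119 and 8.62 ± 3.64 TPM with DMSO (SD, n = 3 each), a log2 difference of 0.68 ± 0.29 (SE; 95% interval -0.01 to 1.36). The difference was 0.37 without DMSO replicate 3 and 0.94 without DMSO replicate 2, fits that left a WM-1119 library without its same-numbered partner. With the replicate block and without the replicate 3 pair the difference was 0.40. RGS18 and RGS1 are neighbours on chromosome 1, with RGS21 between them listed at 0 in every MOLM-13 library, and their DMSO libraries did not rank alike, replicate 3 being the lowest for RGS18 and replicate 1 for RGS1.

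RGS2, which acts mainly on the Gq class, had 2.53, 3.44 and 3.05 TPM with WM-1119, against 2.25, 6.42 and 2.14 TPM with DMSO in MOLM-13. The groups overlapped, with DMSO replicate 2 above all others, and the log2 difference was -0.08 ± 0.35 (SE). Without DMSO replicate 2 it was 0.32, a fit that left WM-1119 replicate 2 without its same-numbered partner. RGS3 was near the bottom of the scale, at 0.681, 0.716 and 0.718 TPM with WM-1119, against 0.135, 1.95 and 0.630 TPM with DMSO, and was not tested. DMSO replicate 2 was thus the highest of the 6 MOLM-13 libraries for RGS1, RGS2, RGS3 and RGS16, 4 of the 5 R4 genes, and not for RGS18.

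**Figure D2:**
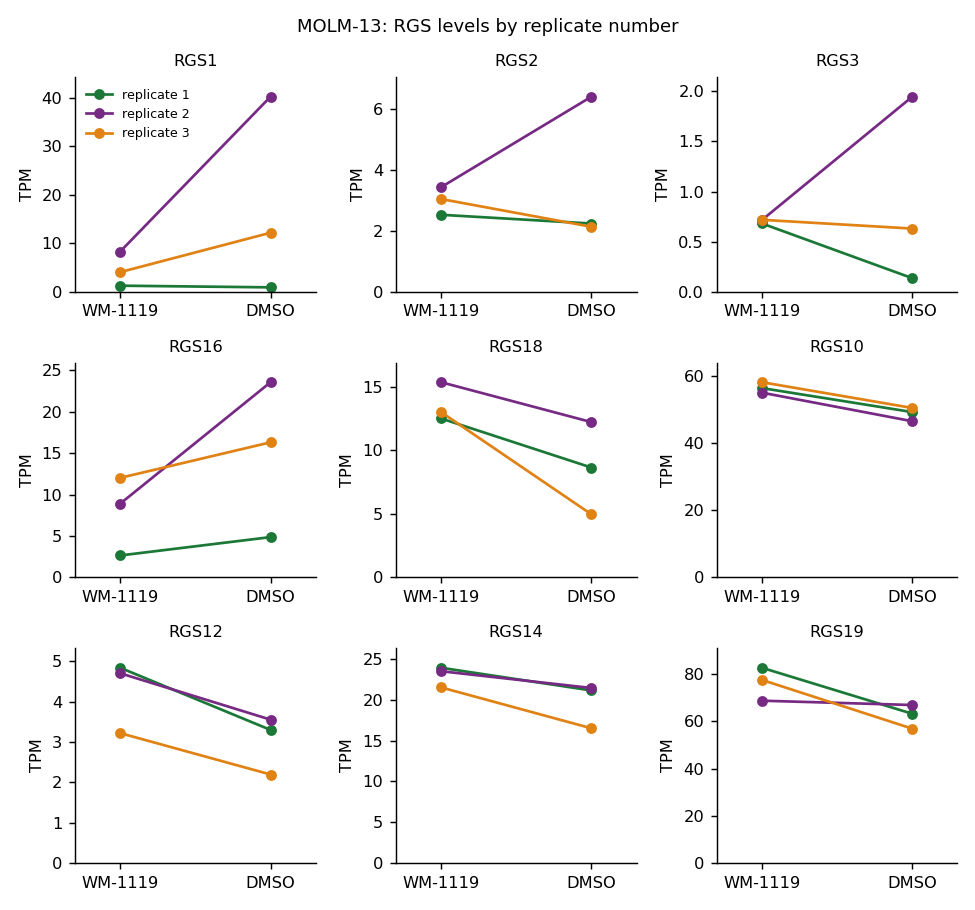
TPM of each of the 9 RGS genes in MOLM-13, WM-1119 left and DMSO right, with a line joining libraries of the same replicate number. RGS16 was lower with WM-1119 on all 3 lines, RGS10, RGS12, RGS14, RGS18 and RGS19 were higher on all 3, and RGS1, RGS2 and RGS3 had lines in both directions.

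The R12 genes and RGS19 were steadier in MOLM-13. RGS10, a short R12 protein found in myeloid cells and microglia, had 56.5, 55.1 and 58.3 TPM with WM-1119, against 49.3, 46.6 and 50.6 TPM with DMSO. The groups did not overlap, and the log2 difference was 0.21 ± 0.16 (SE; 95% interval -0.16 to 0.58). RGS14, a scaffold that also holds inactive Gi subunits through its GoLoco motif, had 23.95, 23.5 and 21.54 TPM with WM-1119, against 21.2, 21.47 and 16.5 TPM with DMSO, a difference of 0.22 ± 0.18 (SE). Its groups met but did not overlap, since the lowest WM-1119 library and the highest DMSO library were almost level.

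RGS12, the other member with a GoLoco motif, was low in MOLM-13, at 4.84, 4.70 and 3.22 TPM with WM-1119, against 3.30, 3.55 and 2.19 TPM with DMSO. Replicate 3 was the lowest under both treatments, so the groups overlapped, while WM-1119 was the higher library at each replicate number. The log2 difference was 0.39 ± 0.23 (SE; 95% interval -0.14 to 0.92). RGS19, also called GAIP and first known as a partner of Gαi3, had 82.8, 68.8 and 77.6 TPM with WM-1119, against 63.3, 67.0 and 56.9 TPM with DMSO. All WM-1119 libraries were above all DMSO libraries, and the log2 difference was 0.29 ± 0.17 (SE).

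Of the 8 RGS genes tested in MOLM-13, 4 had all WM-1119 libraries above all DMSO libraries (4.54% of all tested genes did) and 0 had them below (2.43% did). WM-1119 was higher at all 3 replicate numbers for 5 of the 8 (28.6% of all genes) and lower at all 3 for 1 (14.4%). These counts come from the contrast with which the genes were chosen and are not read further. With the replicate number as a block, the SE of the log2 difference was 0.06 for RGS10 and 0.08 for RGS14. In that fit it was 0.10 for RGS12 and RGS19, 0.20 for RGS18 and 0.24 for RGS2. The adjusted p from limma was 1.00 for each of the 8, and with the replicate number as a block it ran between 0.173 and 0.880, so 0 were called in that fit too.

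In ER-Hoxa9 the gene that stood apart was Rgs10. It had 23.8 and 18.0 TPM in WM-1119 libraries 1 and 2, against 2.31 and 2.79 TPM in DMSO libraries 1 and 2. Both WM-1119 libraries were far above both DMSO libraries. The means were 20.9 ± 4.14 TPM with WM-1119 and 2.55 ± 0.341 TPM with DMSO (SD, n = 2 each), a ratio of 8.20, and the ratios by replicate number were 10.3 and 6.44. On the log2 scale the difference was 2.62 ± 0.19 (SE; 95% interval 2.14 to 3.10), with an adjusted p of 0.0543 from limma that missed the threshold. It ranked 6 of 11362 genes from the top by log2 difference. Without 1 of the 4 libraries the log2 difference stayed between 2.42 and 2.81, with adjusted p between 0.112 and 0.576. Each of these fits left 1 arm with a single library, which was assumed to vary like the other group.

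The other R12 genes and Rgs19 differed less in ER-Hoxa9. Rgs12 had 19.6 and 17.1 TPM with WM-1119, against 12.7 and 14.6 TPM with DMSO, without overlap, and a log2 difference of 0.40 ± 0.14 (SE; limma adjusted p = 0.370). Rgs19 had 80.6 and 72.6 TPM with WM-1119, against 52.0 and 60.3 TPM with DMSO, again without overlap, and a difference of 0.44 ± 0.13 (SE; limma adjusted p = 0.317). Rgs14 was nearly level, at 14.7 and 13.6 TPM with WM-1119, against 14.04 and 13.25 TPM with DMSO, and its groups overlapped. Its log2 difference was 0.04 ± 0.12 (SE), and -0.09 with median-of-ratios scaling.

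Among the R4 genes of ER-Hoxa9, Rgs18 was the most abundant, with 42.5 and 27.2 TPM under WM-1119, against 24.2 and 28.1 TPM under DMSO. WM-1119 replicate 1 was high and the other 3 libraries were close together, so the groups overlapped, and the log2 difference was 0.37 ± 0.23 (SE). It was 0.06 without WM-1119 replicate 1. Rgs2 had 12.5 and 14.2 TPM with WM-1119, against 5.79 and 12.998 TPM with DMSO, where DMSO replicate 1 alone was low. Its log2 difference of 0.55 ± 0.35 (SE) was 0.03 without that library.

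Rgs1 in ER-Hoxa9 had 4.44 and 11.97 TPM with WM-1119, against 5.34 and 11.8 TPM with DMSO. Replicate 2 was the higher library under both treatments, and the log2 difference was -0.10 ± 0.52 (SE). Rgs3 had 2.22 and 2.17 TPM with WM-1119, against 1.47 and 1.20 TPM with DMSO, without overlap, and a log2 difference of 0.46 ± 0.20 (SE). Rgs16 was at the bottom, with 0.257 and 0.359 TPM under WM-1119, against 0.0762 and 0.170 TPM under DMSO, and was not tested. RGS16 was at 7.85 TPM with WM-1119 and 14.9 TPM with DMSO in MOLM-13, a level set across tables that were normalized separately.

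Of the 8 RGS genes tested in ER-Hoxa9, 4 had both WM-1119 libraries above both DMSO libraries, where 40.3% of all tested genes did, and 0 had them below, where 7.94% did. WM-1119 was higher at both replicate numbers for 6 of the 8 (53% of all genes) and lower at both for 0 (15.7%), and nothing is read from these counts either. The whole table leaned the same way. The median log2 difference of the 8 genes was 0.42, against 0.12 over all tested genes, and 7 of the 8 were above 0, against 71.9% of all. In MOLM-13 the median of the 8 was 0.22, against 0.05 over all genes, with 5 of 8 above 0 and 61.5% of all. Median-of-ratios scaling put the median of all ER-Hoxa9 genes at -0.01 and that of all MOLM-13 genes at -0.01, and Rgs14 in ER-Hoxa9 was the single gene of the 9 whose sign it turned. Under that scaling Rgs10 in ER-Hoxa9 stood at 2.49.

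**Figure D3:**
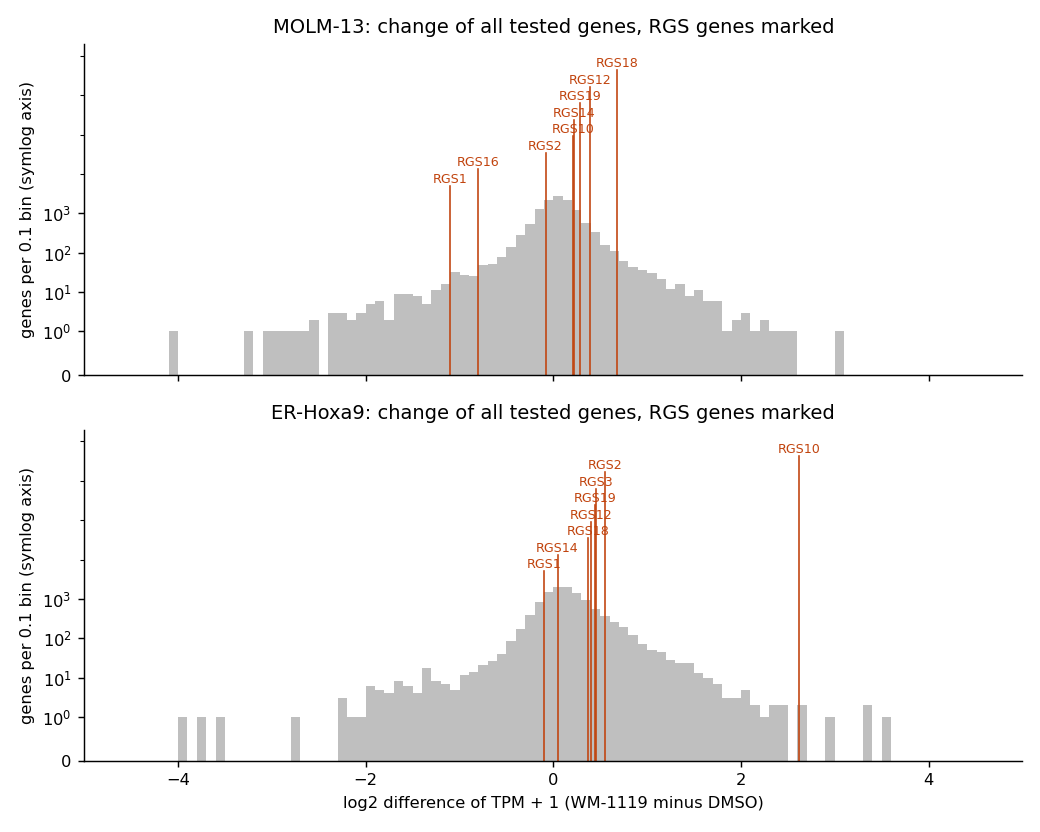
Number of tested genes by log2 difference of TPM + 1, WM-1119 minus DMSO, in bins of 0.1 on a symmetric log axis, with the 8 tested RGS genes of each line marked by lines whose heights only separate their names. Rgs10 in ER-Hoxa9 lies at 2.62, far from the bulk, and in MOLM-13 RGS1 (-1.10) and RGS16 (-0.80) lie left of the bulk and RGS18 (0.68) right of it.

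The question whether an RGS gene differed between the lines in its WM-1119 minus DMSO difference was put to 1 limma fit of both lines over 8726 shared symbols, with line, treatment and their interaction. Of the 7 RGS genes that could enter, 1 was called, RGS10, where 0.0229% of all symbols were called (2 symbols, the other being MIR191). The ER-Hoxa9 difference minus the MOLM-13 difference of RGS10 was 2.41 ± 0.25 on the log2 scale (SE; adjusted p = 0.00460 from limma). It was also called with the replicate block (limma adjusted p = 0.00514). The call was lost without ER-Hoxa9 DMSO replicate 1 (2.31, limma adjusted p = 0.0869) and without ER-Hoxa9 WM-1119 replicate 1 (2.21, limma adjusted p = 0.0682), fits in which 1 ER-Hoxa9 arm was a single library, assumed to vary like the other groups. Both lines' contrasts were known when RGS10 was chosen, so this call is a description too.

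RGS10 also began from different levels in the 2 lines. The ER-Hoxa9 WM-1119 libraries, at 20.9 ± 4.14 TPM (SD, n = 2), were below the MOLM-13 WM-1119 libraries, at 56.6 ± 1.57 TPM, and the DMSO libraries were at 2.55 ± 0.341 TPM in ER-Hoxa9 and 48.8 ± 2.03 TPM in MOLM-13 (SD, n = 3). These levels are set across separately normalized tables. Line, species, dose and table cannot be told apart here. For RGS1, RGS2, RGS12, RGS14, RGS18 and RGS19 the same fit gave an adjusted p of 1.00, and the difference of differences ran from -0.31 for RGS18 to 1.00 for RGS1.

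**Figure D4:**
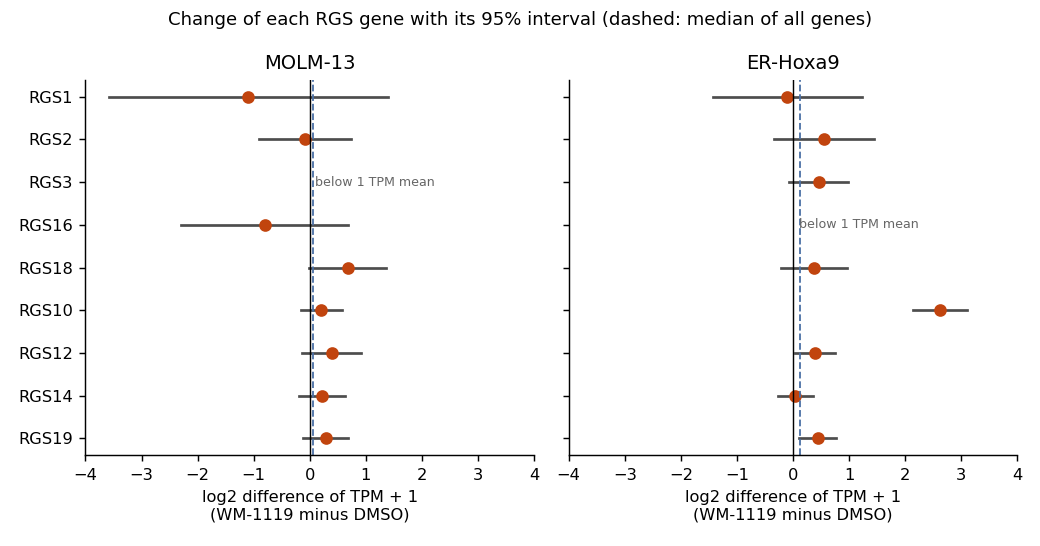
Log2 difference of TPM + 1, WM-1119 minus DMSO, of each tested RGS gene (points) in MOLM-13 (left) and ER-Hoxa9 (right). Bars are 95% intervals from limma without the replicate block, and dashed lines mark the median of all genes. The interval of Rgs10 in ER-Hoxa9, 2.14 to 3.10, lies apart from that of RGS10 in MOLM-13, -0.16 to 0.58, and RGS1 has the widest intervals of both lines.

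Summed by subfamily, the R12 genes were the most stable part of the family in MOLM-13. The 3 R12 genes together had 85.3, 83.4 and 83.02 TPM with WM-1119, against 73.8, 71.6 and 69.3 TPM with DMSO. The 5 R4 genes together had 19.6, 36.7 and 32.9 TPM with WM-1119, against 16.8, 84.4 and 36.2 TPM with DMSO. The R12 sums of the groups did not overlap, and the R4 sums did, with DMSO replicate 2 far above the rest. R4 genes held 10.5% to 19.4% of the RGS total with WM-1119, against 10.9% to 37.8% with DMSO.

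In ER-Hoxa9 the R12 sum was 58.1 and 48.6 TPM with WM-1119, against 29.05 and 30.6 TPM with DMSO, and most of that gap was Rgs10. The R4 sum was 61.9 and 55.9 TPM with WM-1119, against 36.9 and 54.3 TPM with DMSO. Over all 9 genes the sum was 200.5 and 177 TPM with WM-1119, against 118 and 145 TPM with DMSO. The 9-gene sums of the 2 ER-Hoxa9 groups did not overlap, while in MOLM-13 they did, at 188, 189 and 193 TPM with WM-1119, against 154, 223 and 162 TPM with DMSO.

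**Figure D5:**
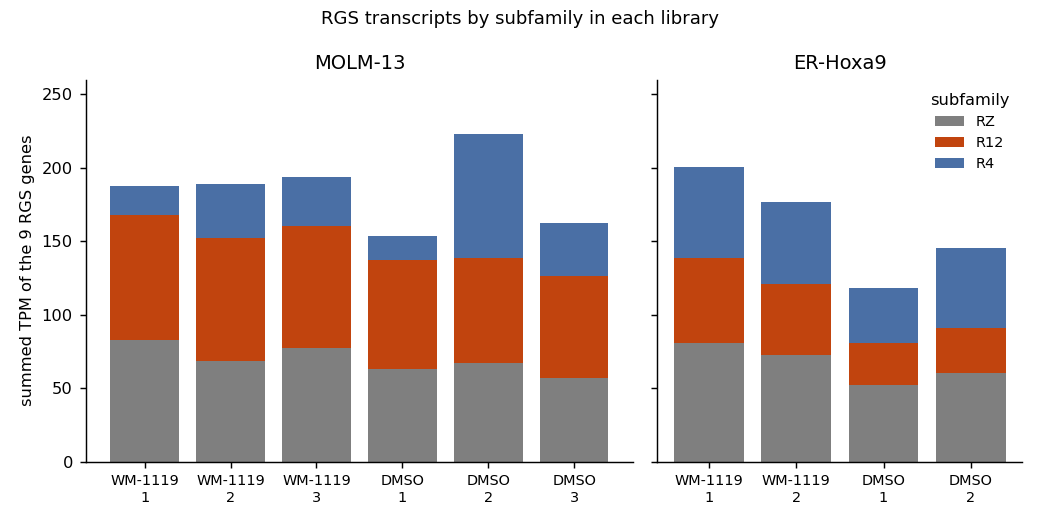
Summed TPM of the 9 RGS genes in each library, stacked by subfamily (RZ is RGS19 alone), WM-1119 libraries left of DMSO libraries in each panel. In MOLM-13 the R4 block of DMSO replicate 2 is 84.4 TPM, above those of all other libraries, and in ER-Hoxa9 the R12 block is 58.1 and 48.6 TPM with WM-1119, against 29.05 and 30.6 TPM with DMSO.

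The 9 genes, selected in part on their TPM levels in these libraries, held nearly all RGS transcripts, so their share is a description. Of the TPM of 21 RGS symbols they made up 98.6% to 99.2% in MOLM-13 and 92.4% to 95.4% in ER-Hoxa9. The largest of the rest in MOLM-13 was RGS5, at 1.44, 1.61 and 1.47 TPM with WM-1119, against 1.37, 1.44 and 0.735 TPM with DMSO. In ER-Hoxa9 it was Rgs8, at 8.99 and 12.4 TPM with WM-1119, against 9.19 and 10.6 TPM with DMSO, a log2 difference of 0.09 ± 0.19 (SE). RGS8, the neighbour of RGS16 on human chromosome 1, was at 0.0300 TPM or less in MOLM-13, so of this gene pair MOLM-13 held RGS16 and ER-Hoxa9 held Rgs8. RGS6, RGS7 and RGS21 were listed at 0 in every MOLM-13 library, and Rgs4, Rgs7, Rgs21, Rgs22 and Axin2 in every ER-Hoxa9 library. Axin1, which carries an RGS domain but serves Wnt signalling, averaged 20.0 ± 3.24 TPM with WM-1119 and 20.0 ± 3.33 TPM with DMSO in MOLM-13, and 34.3 ± 2.82 TPM with WM-1119 and 34.1 ± 0.997 TPM with DMSO in ER-Hoxa9.

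Other genes of G-protein signalling, not all of them partners of RGS proteins, were present in both lines, and 0 genes of the pathway lists were called in either. Of 13 alpha subunits 8 were tested in MOLM-13, 3 above 0 and 5 below, with a median log2 difference of -0.02, and 9 in ER-Hoxa9, 6 above and 3 below, with a median of 0.11. GNAS, the Gs alpha subunit, was the most abundant, at 271 ± 21.9 TPM with WM-1119 and 276 ± 47.7 TPM with DMSO in MOLM-13, and 472 ± 15.8 TPM with WM-1119 and 395 ± 33.9 TPM with DMSO in ER-Hoxa9. Of 14 beta and gamma subunits 11 were tested in MOLM-13 (8 above 0, median 0.17) and 9 in ER-Hoxa9 (7 above 0, median 0.32). GNG5, a gamma subunit and the most abundant of that list over all libraries of each line, had 161 ± 14.7 TPM under WM-1119 and 136 ± 10.5 TPM under DMSO in MOLM-13, and 596 ± 49.4 TPM under WM-1119 and 625 ± 87.2 TPM under DMSO in ER-Hoxa9.

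Among 33 chemoattractant and lipid receptors, not all of them known to be under RGS control, 23 were tested in MOLM-13 (20 above 0 and 3 below, median 0.18). In ER-Hoxa9 18 were tested (15 above and 3 below, median 0.28). The most abundant was CXCR4, the CXCL12 receptor, in MOLM-13, at 116 ± 5.95 TPM with WM-1119 and 105 ± 22.7 TPM with DMSO. In ER-Hoxa9 it was Ccr2, the CCL2 receptor, at 79.9 ± 2.46 TPM with WM-1119 and 86.9 ± 21.3 TPM with DMSO. Of 17 effectors 13 were tested in MOLM-13 (12 above 0, median 0.14) and 11 in ER-Hoxa9 (10 above 0, median 0.35), and Rac2, a GTPase of blood cells, led both at 418 ± 46.0 TPM with WM-1119 and 405 ± 133 TPM with DMSO in MOLM-13 and 218 ± 18.9 TPM with WM-1119 and 176 ± 15.96 TPM with DMSO in ER-Hoxa9. Of 12 other regulators of the G protein cycle 11 were tested in MOLM-13 (9 above 0, median 0.13) and 10 in ER-Hoxa9 (9 above 0, median 0.24). Grk2, a receptor kinase, led that list with 187 ± 20.5 TPM under WM-1119 and 182 ± 18.4 TPM under DMSO in MOLM-13, and 188 ± 30.3 TPM under WM-1119 and 160 ± 3.53 TPM under DMSO in ER-Hoxa9. These medians stand beside 0.05 over all tested genes in MOLM-13 and 0.12 in ER-Hoxa9.

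Markers of other blood cells were set beside the RGS genes, and 0 of them were called. Of the 10 platelet and megakaryocyte markers 2 passed the filter in MOLM-13 and 4 in ER-Hoxa9, of the 10 monocyte and macrophage markers 6 and 5, of the 10 neutrophil maturation markers 5 and 6, and of the 8 B cell markers 1 and 3. For RGS18, known from platelets, the 10 platelet and megakaryocyte markers summed to 7.71 to 9.42 TPM with WM-1119, against 2.31 to 7.64 TPM with DMSO in MOLM-13, where PPBP and PF4 were listed at 0, and to 49.8 to 58.2 TPM with WM-1119, against 24.2 to 41.0 TPM with DMSO in ER-Hoxa9, where Gp1bb was listed at 0. For RGS10, known from macrophage-like cells, the 10 monocyte and macrophage markers summed to 2342 to 3548 TPM with WM-1119, against 818 to 2195 TPM with DMSO in MOLM-13, and to 110 to 114 TPM with WM-1119, against 98.6 to 125 TPM with DMSO in ER-Hoxa9, where Lyz2 was listed at 0. Most of the MOLM-13 sum was LYZ, the lysozyme gene, at 2759 ± 612 TPM with WM-1119 and 1347 ± 689 TPM with DMSO, while CD68 was at 153 ± 3.92 TPM with WM-1119 and 142 ± 17.2 TPM with DMSO, and CCR2 at 22.9 ± 2.72 TPM with WM-1119 and 31.3 ± 2.95 TPM with DMSO. The 10 neutrophil maturation markers summed to 182 to 227 TPM with WM-1119, against 110 to 160 TPM with DMSO in MOLM-13, where LCN2 was listed at 0, and to 122 to 301 TPM with WM-1119, against 157 to 233 TPM with DMSO in ER-Hoxa9. For RGS1, known from lymphocytes, the 8 B cell markers summed to 2.65 to 4.22 TPM with WM-1119, against 2.21 to 3.80 TPM with DMSO in MOLM-13, and to 52.2 to 59.9 TPM with WM-1119, against 21.4 to 34.3 TPM with DMSO in ER-Hoxa9, with MS4A1 listed at 0 in both. The 10 T and NK cell markers summed to 127 to 147 TPM with WM-1119, against 92.6 to 163 TPM with DMSO in MOLM-13. Most of that sum was NKG7, at 131 ± 7.74 TPM with WM-1119 and 110 ± 30.6 TPM with DMSO. The means of CD3D lay the other way, at 4.74 ± 2.75 TPM with WM-1119 and 11.96 ± 7.71 TPM with DMSO. The groups overlapped for both genes. The other 8 averaged under 1 TPM in MOLM-13, with CD2, LCK and GZMA listed at 0. In ER-Hoxa9 the same 10 markers summed to 19.3 to 19.7 TPM with WM-1119, against 12.6 to 20.2 TPM with DMSO. There Cd3e, Cd3g, Cd2 and Gzma were listed at 0. The 8 mast cell and basophil markers summed to 18.1 to 34.3 TPM with WM-1119, against 20.9 to 49.1 TPM with DMSO in MOLM-13, and to 207 to 652 TPM with WM-1119, against 418 to 694 TPM with DMSO in ER-Hoxa9, where Fcer1a was listed at 0. The 8 erythroid markers summed to 168 to 322 TPM with WM-1119, against 173 to 233 TPM with DMSO in MOLM-13, and to 50.6 to 58.4 TPM with WM-1119, against 41.1 to 49.5 TPM with DMSO in ER-Hoxa9, where Hbb-bs was listed at 0. The largest part in MOLM-13 was TFRC, at 139 ± 39.2 TPM with WM-1119 and 135 ± 53.7 TPM with DMSO. HBA1 varied widely between MOLM-13 libraries, from 0 to 158 TPM with WM-1119 and from 0 to 95.2 TPM with DMSO. The part of these markers in the RGS values was not tested, and in bulk RNA fewer cells of a type and less RNA per cell cannot be told apart.

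Genes of like pattern were those with the highest Pearson correlation of log2(TPM + 1) over the 10 libraries, each line centred on its own mean, among 6824 symbols averaging 5 TPM or more in each line. The libraries share treatment and replicate structure, so these are descriptions. For RGS10 they included NUDT22 (r = 0.943) and DCTN3 (r = 0.931). Within MOLM-13 alone the correlation with RGS10 was 0.0887 for NUDT22 and 0.67 for DCTN3, and within ER-Hoxa9 it was 0.97 for NUDT22 and 0.98 for DCTN3.

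RGS1 was most like MXI1 (r = 0.962), CLIP2 (r = 0.958) and DYM (r = 0.950), with correlations of 0.995, 0.674 and 0.539 in that order within ER-Hoxa9 and 0.960 or more within MOLM-13. RGS14 was most like RHOBTB2 (r = 0.983), SEC22C (r = 0.964) and NFU1 (r = 0.960). Within ER-Hoxa9 these were 0.796, 0.880 and 0.798. RGS18 was most like RIT1 (r = 0.924), PLEKHM2 (r = 0.921) and PYM1 (r = 0.920), which within ER-Hoxa9 had 0.583, 0.979 and 0.912. RGS19 was most like GPR160 (r = 0.964), GLRX (r = 0.963) and DCAF15 (r = 0.962), with 0.950 or more within either line.

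The tables limit these values in a few ways common to all genes. Each column summed to 1000000 TPM, so the read depth is unknown and no counting interval is given. The number of symbols at 1 TPM or more ran from 12112 to 12416 over the MOLM-13 libraries and from 11042 to 11446 over those of ER-Hoxa9, and no 2 libraries were identical. Symbols of microRNAs and small nucleolar RNAs held 13.7% to 22.5% of a MOLM-13 library and 7.98% to 11.3% of an ER-Hoxa9 library. All 6 identity markers of MOLM-13 (CD33, FLT3, HOXA9, MEIS1, MPO and SPI1) and all 6 of ER-Hoxa9 (Hoxa9, Kit, Mpo, Spi1, Cd34 and Cebpa) passed the filter in their line, and 0 of them were called. The 6 of MOLM-13 also passed in ER-Hoxa9, and 4 of the 6 of ER-Hoxa9 passed in MOLM-13, so passing does not tell the lines apart.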

How the data were processed

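RNA sequencing measured gene expression in 10 libraries, from RNeasy-extracted RNA and commercially built libraries, per the labels' protocols. The values the authors deposited are TPM per gene symbol. The submitters' processing notes name Salmon and the builds hg38 and mm10. For the Salmon version and the annotation, the sources used here give nothing. TPM are relative to all transcripts of a library and keep no depth, and a 0 is read only as listed at 0. Groups follow the labels. The mouse columns carry another line name and were taken as ER-Hoxa9, the only mouse line, and 0 columns were left unassigned.

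Each line was fitted on log2(TPM + 1) with limma 3.58.1 in R 4.3.3 (lmFit, eBayes with trend, two-sided), over genes averaging 1 TPM or more, with Benjamini-Hochberg adjustment over all of them. A fold change on this scale understates the change of low genes. The fit was also run on simulated data with independent noise in each library, so that run does not cover libraries that deviate together. The members and lists were chosen with earlier results of these data known. Named were all 9 RGS genes, other RGS-domain genes at a mean of at least 1 TPM, the most abundant gene of each pathway list where none was called, and for each RGS gene with at least 5 TPM in both lines the 3 most correlated symbols, of which 1 is not reported here. Same-numbered MOLM-13 libraries deviated together (correlations of 0.522, 0.438 and 0.608), so the numbers pair those samples, a reading that comes from the data and not from the labels. In ER-Hoxa9 the correlation was 0.206 over 2 pairs, too few to decide. Alternatives were the pseudocount (0.1), no filter, median-of-ratios scaling, removal of short RNA entries, a replicate block, each library left out and, chosen after seeing the data, the block with median-of-ratios scaling. Python 3.11.15 with matplotlib 3.10.9 drew the figures.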

Additional observations from a re-analysis of the deposited data

Results flagged for a closer look

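RGS10, which was selected with both lines' differences known, was called in the interaction fit of the lines, a description and not independent evidence. The ER-Hoxa9 difference (WM-1119 minus DMSO) exceeded the MOLM-13 difference by 2.41 on the log2 scale, with both ER-Hoxa9 WM-1119 libraries above both DMSO libraries and all 3 MOLM-13 WM-1119 libraries above all 3 DMSO libraries. Line, species, dose and table cannot be told apart.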

How the results depend on the processing

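No RGS gene and no pathway gene was called under any of the 13 alternatives run in MOLM-13 and the 9 run in ER-Hoxa9. Over all MOLM-13 genes, 1 was called, against 0 without a filter, without short RNA entries, with the replicate block, with the block without the replicate 3 pair and with median-of-ratios scaling added to the block, and 0 to 6 with 1 library left out. Over all ER-Hoxa9 genes, 4 were called, against 0 without a filter, 0 with a pseudocount of 0.1, 1 without short RNA entries, 0 with the replicate block and 0 with any 1 library left out. The block, which uses the pairing of replicate numbers, changed no call of an RGS gene. The count of RGS genes that differed between lines was 1, and 0 to 1 with 1 library left out, and the adjusted p of RGS10 ran from 0.00216 to 0.0869 over all 15 alternatives.

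Some signs turned. Rgs14 in ER-Hoxa9 was at -0.093 with median-of-ratios scaling, and -0.0080 to 0.097 with 1 library left out. With 1 library left out RGS2 in MOLM-13 ran from -0.30 to 0.32 and Rgs1 in ER-Hoxa9 from -0.73 to 0.53. Between lines, RGS12 was at -0.065 with a pseudocount of 0.1 and -0.073 with median-of-ratios scaling, and with 1 library left out RGS12 ran from -0.14 to 0.17, RGS1 from -0.015 to 2.20 and RGS18 from -0.62 to 0.0067. Each MOLM-13 fit without 1 library left another library without its same-numbered partner. Each ER-Hoxa9 fit without 1 library has an arm of a single library. The cause was not tested.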

Other observations

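PTAFR, the receptor of platelet-activating factor, was picked out after its values were seen. It averaged 14.3 ± 1.02 TPM with WM-1119 and 5.47 ± 1.16 TPM with DMSO in MOLM-13 (SD, n = 3 each), and 41.2 ± 10.2 TPM with WM-1119 and 28.4 ± 0.0344 TPM with DMSO in ER-Hoxa9 (SD, n = 2 each). All WM-1119 libraries stood above all DMSO libraries in both lines, as did 4.54% of all tested genes in MOLM-13 and 40.3% in ER-Hoxa9. The limma adjusted p of PTAFR was 0.310 in MOLM-13 and 0.378 in ER-Hoxa9.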
